A study of Mus musculus with 6 samples.

Results

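The genes studied here encode proteins that carry long-chain fatty acids inside brain cells, bring them across the membrane or join them to coenzyme A, measured in the cerebral cortex of LPS-treated mice. There are 10 of them, chosen by name: Fabp7, Fabp5, Fabp3, Acsl1, Acsl3, Acsl6, Acsbg1, Slc27a1, Slc27a4 and Dbi. All 10 were found among the 49315 genes of the files, and all 10 had enough reads to be tested among 17185 genes. The question put to them was whether other carriers and acyl-CoA synthetases were more abundant where Fabp7 was knocked down.

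The shFabp7 group (3 libraries) came from mice injected retro-orbitally with AAV-PHP.eB-Gfap-GFP-shFABP7. The shScr group (3 libraries) came from mice given AAV-PHP.eB-Gfap-GFP-shScr, which carries a non-silencing scramble. Both vectors encode GFP and their shRNA under a Gfap promoter, so the knockdown is directed at cells that use this promoter, mainly astrocytes, while the libraries hold RNA of the whole cortex. All mice were labelled wild type, received the vector at 21 days of age and LPS (bacterial lipopolysaccharide, 1 mg/kg) once a week for 3 weeks from 4 months of age, with tissue taken 24 h after the last dose. No group without LPS or without vector was analysed here, and the labels leave it unsaid whether each library came from its own animal, so the spread behind the p-values may in part be technical.

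Fatty acid-binding proteins (FABPs) are small cytosolic carriers that hold a fatty acid in a barrel-shaped pocket. FABP7 is the carrier of astrocytes and radial glia and binds polyunsaturated fatty acids such as docosahexaenoic acid. A fatty acid is used by the cell only after an acyl-CoA synthetase has activated it to its coenzyme A ester, which acyl-CoA-binding protein then carries.

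Libraries held 16914012 to 18991235 counts, and counts are the authors' raw reads per gene. Libraries also differed in marker content and sex, and the marker differences went in part with the groups. Summed hippocampal and dentate neuron markers were 97.3 to 126 TPM in shFabp7 (TPM: counts scaled by gene length and library size). In shScr they were 118 to 242 TPM, highest in libraries 1 and 3 at 242 and 231. Wfs1 made up most of both sums, with 199 TPM in shScr library 1 and 133 TPM in shScr library 3. Among the other markers, Fibcd1 had 10.4 and 37.2 TPM and Spint1 10.5 and 7.68 TPM in these 2 libraries, so single markers ranked them differently. C1ql2 was higher in all 3 shScr libraries, at 11.4, 10.1 and 31.1 TPM, against 1.08, 1.07 and 1.64 TPM in shFabp7. Lct was the 1 tested marker with a log2 fold change above 0 (0.28), and 0 of 7 tested passed (adjusted p, edgeR). Choroid plexus and ependymal markers summed to 11.1 to 24.9 TPM in shFabp7 and 18.1 to 42.3 TPM in shScr. These markers were low and disagreed: Clic6 had 15.7 and 1.39 TPM and Ttr 2.13 and 17.0 TPM in shScr libraries 1 and 3. All 5 tested were lower in shFabp7, against 51.5% of all genes tested, and 0 passed (adjusted p, edgeR). Among those with too few reads to test, mean CPM was higher in shFabp7 for Folr1 (150% of shScr) and Kcne2 (204%) and lower for Tmem212 (21.4%). The mean sum in shFabp7 was 57.7% of that in shScr for the hippocampal list and 52.7% for the choroid plexus list. Xist, a transcript of female cells, was near 0 in shFabp7 library 1 and shScr libraries 1 and 2 and between 151 and 192 TPM in the others. Both groups thus hold both sexes, but in unequal numbers. Y-linked genes summed to 122 to 128 TPM in the libraries with Xist near 0. In the others they summed to 7.69 TPM in shFabp7 library 2, 1.16 TPM in shFabp7 library 3 and 0.911 TPM in shScr library 3. All 12 astrocyte markers were detected, and their sum was 3161 to 3443 TPM in shFabp7 and 3057 to 3259 TPM in shScr.

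Fabp7, the target of the shRNA, was lower in each of the 3 shFabp7 libraries than in any shScr library. The files held 93, 41 and 66 Fabp7 reads in shFabp7 libraries 1 to 3 and 484, 285 and 290 reads in shScr libraries 1 to 3. As CPM (counts divided by the TMM-scaled library size, used below for a gene between groups) these were 5.55, 2.49 and 3.52 in shFabp7 and 26.3, 15.1 and 15.8 in shScr. The groups did not overlap, and shScr library 1 stood well above the other two. The fitted level in shFabp7 was 20.2% of that in shScr, with a 95% confidence interval of 11.3% to 36.2%. The log2 fold change of -2.31 (SE 0.35) did not pass the threshold of 0.05 (adjusted p = 0.0704, quasi-likelihood test of edgeR), while DESeq2 gave an adjusted p of 5.23e-13. The call depended on the library left out. Without shScr library 1 the value was -2.00 (adjusted p = 0.0162, edgeR), and without shScr library 2 it was -2.45 (adjusted p = 0.0315, edgeR). It did not pass without any other library, with adjusted p from 0.0866 (without shFabp7 library 1) to 0.337 (without shFabp7 library 2) by edgeR. Over all 17 alternative settings it lay between -2.66 and -1.97. With the hippocampal marker mean as a covariate the value was -2.29 (adjusted p = 0.601, edgeR). Of the 7 hippocampal markers tested, 6 were lower in shFabp7, against 51.5% of all genes tested, so this covariate shares part of the group difference. In bulk tissue, fewer cells of a type and less RNA per cell cannot be told apart.

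Gfap, whose promoter drives the vectors, was itself lower, with 134, 161 and 168 CPM in shFabp7 libraries and 249, 240 and 311 CPM in shScr libraries (log2 fold change -0.79, SE 0.12, adjusted p = 0.0597 by edgeR, not past the threshold). Its part in the Fabp7 values was not tested.

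The 3 carriers are related genes on separate chromosomes. In the gene positions of the files, which follow GRCm38, Fabp7 (ENSMUSG00000019874) lies on chromosome 10 at 57784881 to 57788450, Fabp5 (ENSMUSG00000027533) on chromosome 3 at 10012548 to 10016607 and Fabp3 (ENSMUSG00000028773) on chromosome 4 at 130308595 to 130315463, all on the plus strand. Coding sequences, read from the GENCODE M21 transcripts, were 399 bases in Fabp7, 408 in Fabp5 and 402 in Fabp3. Fabp7 matched Fabp3 at 66.7% of aligned bases and Fabp5 at 55.4%. The longest run of identical bases was 20 between Fabp7 and Fabp3, and 13 between Fabp7 and Fabp5. The 60 coding bases around the run shared with Fabp3 are shown because they hold the longest match between the target and another carrier. Capitals mark the 28 bases that are the same in all 3 genes. The stretch covers coding bases 151 to 210 of Fabp7 and of Fabp3 and 157 to 216 of Fabp5. Of its 60 bases, 47 in Fabp3 and 35 in Fabp5 match Fabp7.
Fabp7: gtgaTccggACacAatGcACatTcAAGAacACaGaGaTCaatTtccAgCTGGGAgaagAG
Fabp5: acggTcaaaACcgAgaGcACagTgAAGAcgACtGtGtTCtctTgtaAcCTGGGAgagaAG
Fabp3: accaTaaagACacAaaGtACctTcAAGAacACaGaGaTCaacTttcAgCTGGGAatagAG
No stretch of 50 bases of any Fabp7 transcript recurred in a transcript of another gene. Of the 50-base stretches of Fabp3, 37.3% recurred elsewhere, mostly in the pseudogene Fabp3-ps1 (29.2%), and of those of Fabp5 5.48% did, so the Fabp3 level carries more doubt than the others. The shRNA sequence was not analysed here.

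Fabp5, the epidermal-type FABP, differed between groups by less than the spread between libraries. It had 49.6, 53.5 and 43.7 CPM in shFabp7 and 49.4, 44.2 and 51.9 CPM in shScr. The groups overlapped fully, and the fitted level in shFabp7 was 101% of that in shScr (95% confidence interval 87.4% to 116%, log2 fold change 0.01, adjusted p = 0.968 by edgeR). The sign of this value turned with the setting.

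Fabp3, the heart-type FABP and a carrier of neurons in the brain, had 50.8, 45.7 and 44.8 CPM in shFabp7 and 36.0, 44.1 and 45.4 CPM in shScr. The shScr libraries 2 and 3 lay within or beside the shFabp7 range, and shScr library 1 was the low one. The fitted level was 113% of that in shScr (95% confidence interval 96.7% to 131%, log2 fold change 0.17, SE 0.10, adjusted p = 0.410 by edgeR). Without shScr library 1 the log2 fold change was 0.07. Summed markers of excitatory neurons were 3168 to 3539 TPM in shFabp7 and 2207 to 2893 TPM in shScr, lowest in that same library, and their part in the Fabp3 value was not tested. All 8 of these markers had fold changes above 0, where 8331 of all 17185 genes tested did, and 0 passed (adjusted p, edgeR).

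**Figure D1:**
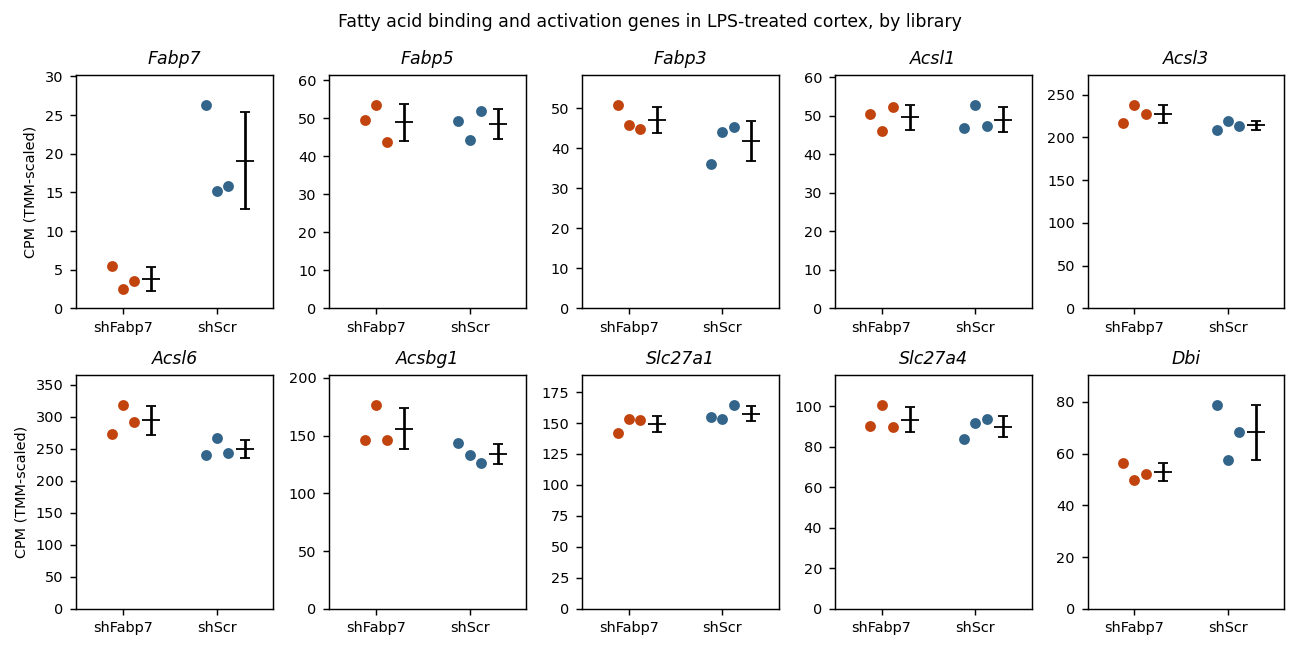
Level of each gene in CPM after TMM scaling (y axis, from 0) in the 3 shFabp7 and 3 shScr libraries, each point 1 library and the bar beside them the mean ± SD. Fabp7 averaged 3.85 CPM in shFabp7 and 19.1 CPM in shScr, and the other genes differed far less.

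Per length, Fabp7 was a minor part of the FABP transcripts in both groups. It averaged 11.1 ± 4.59 TPM in shFabp7 and 54.8 ± 19.7 TPM in shScr (SD, n = 3 each). Fabp5 averaged 49.2 ± 4.37 TPM in shFabp7 and 48.6 ± 5.14 TPM in shScr, and Fabp3 205 ± 15.6 TPM in shFabp7 and 181 ± 18.4 TPM in shScr. Fabp7 was 4.11 ± 1.40% of their summed TPM in shFabp7 and 19.2 ± 6.53% in shScr. The sum of the 3 was 251 to 290 TPM in shFabp7 and 269 to 295 TPM in shScr, so the groups overlapped. Among the other family members, Fabp1, Fabp6, Fabp9, Fabp12 and Pmp2, the FABP of myelin, were not detected (0 reads in all 6 libraries), and Fabp2 and Fabp4 had too few to be tested. Fabp4, the adipocyte FABP, had 3, 12 and 10 reads in shFabp7 and 4, 4 and 7 reads in shScr.

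The gene length in the files counts all exons, including a retained-intron transcript of Fabp5, and the shares depend on it. With the longest protein-coding transcript as length (880 bases for Fabp7, 987 for Fabp5 and 823 for Fabp3), a choice made after seeing the data, Fabp7 was 3.91 ± 1.41% of the 3 in shFabp7 and 17.8 ± 5.53% in shScr. On that scale Fabp5 was 44.6 ± 3.10% in shFabp7 and 40.4 ± 1.54% in shScr, in place of 18.6% and 17.1% of the TPM. The summed level was 111 ± 7.90 CPM per kilobase in shFabp7 and 122 ± 5.36 CPM per kilobase in shScr (SD, n = 3 each).

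**Figure D2:**
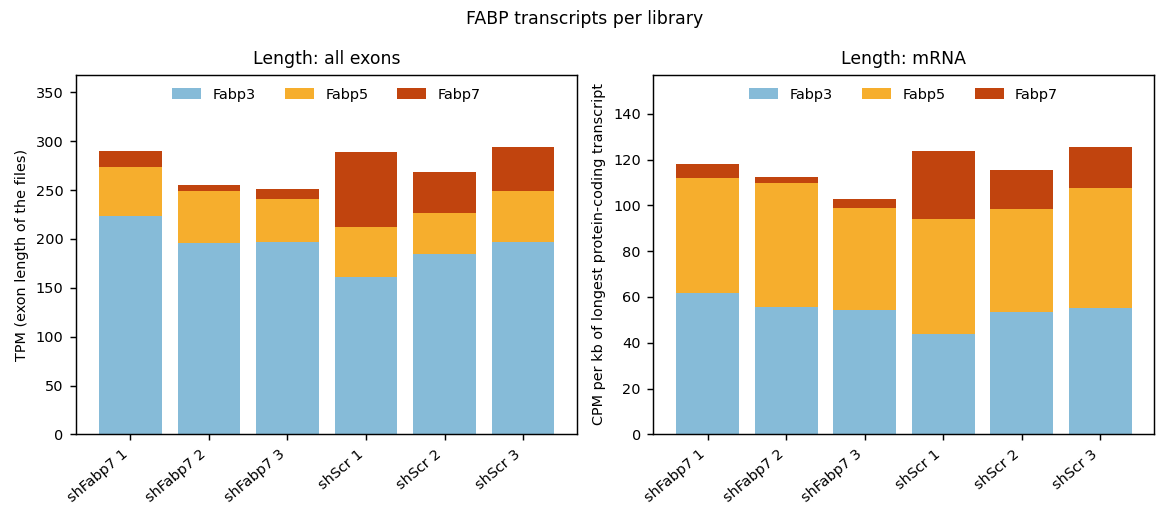
Fabp3, Fabp5 and Fabp7 transcripts stacked for each library, shFabp7 libraries on the left and shScr on the right, in TPM with the exon length of the files (left panel) and in CPM per kilobase of the longest protein-coding transcript (right panel). The Fabp7 segment is thin in shFabp7 (3.91% of the stack on the right) and larger in shScr (17.8%), while the Fabp5 segment depends on the length used.

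Of the 10 genes, 0 passed the threshold in edgeR, where 0.116% of all genes tested did. An unadjusted p under 0.05 was reached by 4 of the 10 (Fabp7, Acsl6, Acsbg1 and Dbi), against 16.8% of all genes tested. DESeq2 called 1 of the 10, Fabp7, against 4.49% of genes, and limma-voom with quality weights also called Fabp7 alone. The groups did not overlap for 2 genes that were higher in shFabp7, Acsl6 and Acsbg1, against 11.4% of all genes tested. They did not overlap for 2 that were lower, Fabp7 and Dbi, against 11.5%. Without Fabp7, the median log2 fold change of the other 9 was 0.05, with 7 of 9 above 0. Over all genes tested the median was -0.0065, with 8331 of 17185 above 0.

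Among Acsl1, Acsl3, Acsl6 and Acsbg1, the acyl-CoA synthetases of the set, fitted differences between groups were at most 1.18-fold. Acsl6, a synthetase of neurons and glia known for enriching the brain in docosahexaenoic acid, lies on chromosome 11 at 54303798 to 54364756 (ENSMUSG00000020333). It had 272, 318 and 292 CPM in shFabp7 and 241, 266 and 243 CPM in shScr. Every shFabp7 library was above every shScr library, by a small step. The summed excitatory neuron markers given with Fabp3 also did not overlap, at 3168 to 3539 TPM in shFabp7 and 2207 to 2893 TPM in shScr, and their part in the Acsl6 value was not tested. The fitted level of Acsl6 was 118% of that in shScr (95% confidence interval 105% to 132%, log2 fold change 0.23, SE 0.08, adjusted p = 0.186 by edgeR), and only the setting without a filter on low counts called it (adjusted p = 0.0330). With the hippocampal marker mean as a covariate, or without shScr libraries 1 and 3, the log2 fold change was 0.14.

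Acsbg1, the bubblegum-type synthetase of long and very long chains and a gene of astrocytes, lies on chromosome 9 at 54604877 to 54661870 (ENSMUSG00000032281). It had 146, 176 and 146 CPM in shFabp7 and 143, 133 and 126 CPM in shScr. The groups did not overlap, but the lowest shFabp7 libraries lay just above shScr library 1. The fitted level was 116% of that in shScr (95% confidence interval 102% to 133%, log2 fold change 0.22, SE 0.09, adjusted p = 0.246 by edgeR). Without shFabp7 library 2, the highest, the log2 fold change was 0.12. With the hippocampal marker mean as a covariate it was also 0.12, and with the astrocyte marker mean 0.20. The summed astrocyte markers overlapped between groups, but single markers lay on both sides of 0, and 0 of 12 passed (adjusted p, edgeR). The groups did not overlap for 2 of the 12 that were higher in shFabp7, Aldh1l1 (fitted level 118% of that in shScr) and Gjb6 (119%), against 11.4% of all genes tested. Nor did they overlap for 3 markers that were lower, Aqp4 (79.0%), Sox9 (80.3%) and Slc1a3 (89.5%), against 11.5% of all genes tested. Their part in the Acsbg1 value was not tested one by one.

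Acsl3, a synthetase of the endoplasmic reticulum and of lipid droplets, lies on chromosome 1 at 78657825 to 78707743 (ENSMUSG00000032883). It had 217, 238 and 228 CPM in shFabp7 and 209, 220 and 214 CPM in shScr, with groups that overlapped (log2 fold change 0.09, 95% confidence interval -0.05 to 0.22, adjusted p = 0.507 by edgeR). Acsl1, the synthetase best known from fat, heart and liver, lies on chromosome 8 at 46471037 to 46536051 (ENSMUSG00000018796). It had 50.4, 46.0 and 52.3 CPM in shFabp7 and 46.8, 52.7 and 47.3 CPM in shScr. Its groups overlapped fully (log2 fold change 0.02, 95% confidence interval -0.16 to 0.19, adjusted p = 0.935 by edgeR), and its sign turned with the setting.

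Taken per length, the 4 synthetases summed to 444, 493 and 461 TPM in shFabp7 and 429, 410 and 404 TPM in shScr. Every shFabp7 library was above every shScr library. Acsl3 gave 40.2 ± 1.08% of the sum in shFabp7 and 42.3 ± 1.10% in shScr (SD, n = 3 each). Acsbg1 gave 33.3 ± 1.58% in shFabp7 and 32.0 ± 1.84% in shScr, and Acsl6 22.8 ± 0.384% in shFabp7 and 21.7 ± 0.851% in shScr. Acsl1 gave the least, 3.66 ± 0.456% in shFabp7 and 4.01 ± 0.193% in shScr. Several of these genes share exon bases with a neighbour. Acsl1 overlaps Gm45244 on the opposite strand over 9.91% of its exon bases, Acsl6 overlaps Gm12224 there over 2.04%, and Acsl3 overlaps Utp14b on the same strand over 5.60%. The counting is not stated to use strand, so such reads cannot be assigned with certainty.

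The fatty acid transport proteins, membrane proteins that take up fatty acids and also activate them, had groups that overlapped. Slc27a1 (FATP1, ENSMUSG00000031808), on chromosome 8 at 71568882 to 71587302, had 142, 153 and 152 CPM in shFabp7 and 155, 153 and 164 CPM in shScr. The highest library was in shScr and the lowest in shFabp7 (log2 fold change -0.08, 95% confidence interval -0.21 to 0.06, adjusted p = 0.551 by edgeR). Slc27a4 (FATP4, ENSMUSG00000059316), on chromosome 2 at 29802634 to 29817522, had 90.1, 101 and 89.6 CPM in shFabp7 and 84.1, 91.8 and 93.8 CPM in shScr. The highest library was in shFabp7 and the lowest in shScr (log2 fold change 0.05, 95% confidence interval -0.10 to 0.21, adjusted p = 0.741 by edgeR).

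Dbi, which encodes acyl-CoA-binding protein (also called diazepam binding inhibitor) and follows activation in the pathway, was lower in shFabp7. It lies on chromosome 1 at 120113280 to 120121078 on the minus strand (ENSMUSG00000026385). It had 56.5, 49.6 and 52.0 CPM in shFabp7 and 78.7, 57.6 and 68.3 CPM in shScr. The groups did not overlap, but shScr library 2 lay just above shFabp7 library 1. The fitted level was 77.3% of that in shScr (95% confidence interval 65.0% to 91.9%, log2 fold change -0.37, SE 0.11), and the adjusted p of 0.166 by edgeR did not pass. Without shScr library 2 the value was -0.48 and passed (adjusted p = 0.0170, edgeR). Without shScr libraries 1 and 3 it was -0.13, and with the hippocampal marker mean as a covariate -0.23. Summed microglia markers were also lower, at 709 to 804 TPM in shFabp7 and 830 to 916 TPM in shScr. Of these 8 markers, 7 had fold changes below 0, against 51.5% of all genes tested, and 0 passed (adjusted p, edgeR). Within each group both the microglia sum and Dbi were lowest in library 2, while the sum was highest in library 3 and Dbi in library 1. Summed choroid plexus and ependymal markers were 24.9, 11.1 and 16.4 TPM in shFabp7 and 38.9, 18.1 and 42.3 TPM in shScr. The largest single marker of that sum was Clic6 in shScr library 1 and Ttr in shScr library 3. The part of either list in the Dbi value was not tested.

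**Figure D3:**
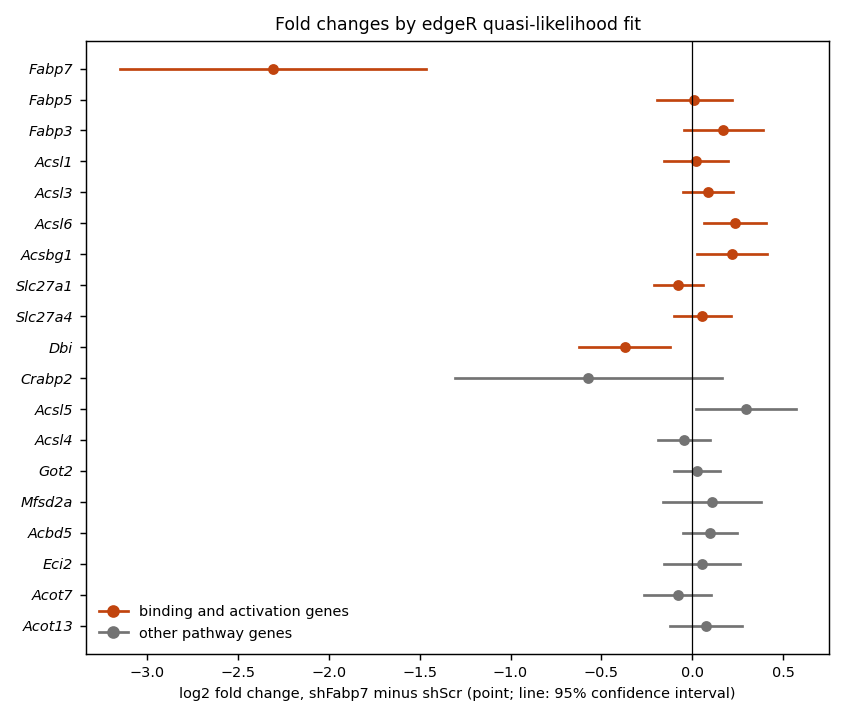
Log2 fold change of shFabp7 minus shScr (x axis) with its 95% confidence interval for the 10 genes and for 9 other genes of the pathway, from the edgeR fit. Fabp7 lies at -2.31, and every other interval shown lies within -1.30 and 0.57.

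Levels between genes were compared per length. In shScr the order by mean TPM was Fabp3 (181), Acsl3 (175), Dbi (172), Acsbg1 (133), Slc27a1 (96.2), Acsl6 (89.8), Slc27a4 (72.6), Fabp7 (54.8), Fabp5 (48.6) and Acsl1 (16.6). Fabp3, Acsl3 and Dbi did not differ beyond their spread, nor did Dbi and Acsbg1, Slc27a1 and Acsl6, Slc27a4 and Fabp7, or Fabp7 and Fabp5. In shFabp7, Fabp7 was the lowest of the 10 at 11.1 ± 4.59 TPM, and its libraries overlapped those of Acsl1 at 17.0 ± 1.36 TPM. The order changes with the length used: with the longest protein-coding transcript, Dbi had the highest mean over the 6 libraries, at 106 CPM per kilobase, and Fabp5 (49.4) stood near Fabp3 (54.0).

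Other genes of the pathway were taken from 5 lists by family, 61 genes in all, of which 59 were matched and 37 could be tested. Of these 37, 0 passed in edgeR, against 0.116% of all genes tested. An unadjusted p under 0.05 was reached by 6 of 37, against 16.8% of all genes, and 2 of 37 passed in DESeq2, against 4.49%, so both counts were near the background. The median log2 fold change was -0.04. Among other acyl-CoA synthetases (11 tested, median -0.09), Acsl5, a synthetase of mitochondria and endoplasmic reticulum, had 79.6, 76.4 and 71.4 CPM in shFabp7 and 49.8, 68.9 and 66.7 CPM in shScr (log2 fold change 0.29, adjusted p = 0.272 by edgeR). Its groups did not overlap, and shScr library 1 was again the low one. Without that library the Acsl5 value was 0.16. Acsl4, which prefers arachidonic acid, had a log2 fold change of -0.04. Of the related lipid-binding proteins, the retinoic acid carrier Crabp2 had a log2 fold change of -0.57 (adjusted p = 0.409 by edgeR), with groups that overlapped. Leaving out shScr library 1 gave Crabp2 a value of -0.18, and leaving out shScr library 2 one of -0.82.

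For membrane uptake (6 tested, median -0.13), Mfsd2a, the docosahexaenoic acid carrier of the blood-brain barrier, had a log2 fold change of 0.11 and Got2, a mitochondrial aminotransferase also described as a fatty acid binder of the plasma membrane, 0.03. Among acyl-CoA-binding proteins other than Dbi (5 tested, median 0.09), the peroxisomal protein gene Acbd5 had 0.10 and Eci2 0.05. Among acyl-CoA thioesterases, which undo activation (13 tested, median -0.04), Acot7, the main cytosolic one of brain, had -0.08 and Acot13 0.07. The 2 pathway genes called by DESeq2 were thioesterase genes, named here after their values were seen. Them6 had 45.4, 59.9 and 42.9 CPM in shFabp7 and 26.1, 36.0 and 32.9 CPM in shScr (log2 fold change 0.64, SE 0.16, adjusted p = 0.139 by edgeR). Acot5, a mouse peroxisomal thioesterase with close neighbouring copies, had 48, 74 and 47 reads in shFabp7 and 20, 27 and 34 reads in shScr (log2 fold change 1.17, SE 0.30, adjusted p = 0.125 by edgeR). Both were higher in every shFabp7 library than in any shScr library.

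The genes whose profile over the 6 libraries lay nearest to that of Fabp7 were ranked by the root mean square difference of centred log2 CPM among 13764 genes. The nearest were Htr2c (0.340), Atp6v1c2 (0.354), Nnat (0.423), Stac (0.426) and Calb2 (0.428). Htr2c, which encodes a serotonin receptor, had 16.6, 11.5 and 16.4 CPM in shFabp7 and 108, 43.3 and 39.8 CPM in shScr. Calb2, which encodes calretinin, had 9.19, 5.53 and 7.14 CPM in shFabp7 and 41.1, 14.5 and 17.3 CPM in shScr. Both were highest in shScr library 1, as Fabp7 was. They were chosen for a profile near that of Fabp7, so this likeness is no separate result. None of the 5 passed in edgeR (adjusted p from 0.123 to 0.223). Of the other 9 binding and activation genes, Dbi had the profile nearest to Fabp7, at 1.02. It was far from the closest, at rank 1186 of all 17185 genes tested.

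**Figure D4:**
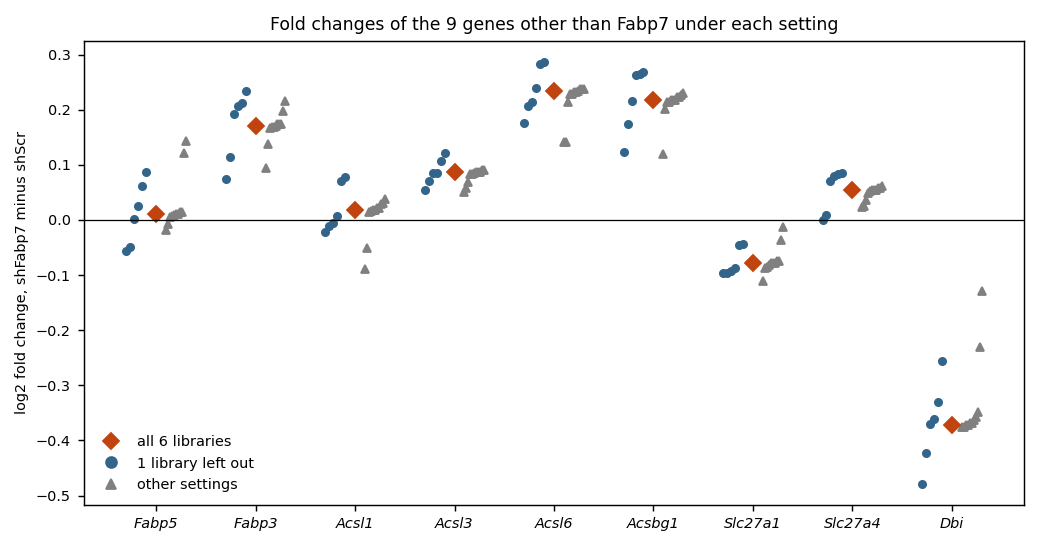
Log2 fold change of shFabp7 minus shScr (y axis) for the 9 genes other than Fabp7, with all 6 libraries (diamonds), with 1 library left out (circles) and under the other settings (triangles). Values for Fabp3, Acsl3, Acsl6 and Acsbg1 stay above 0 and those of Dbi and Slc27a1 below 0, while Fabp5, Acsl1 and Slc27a4 cross 0.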

How the data were processed

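The authors deposited 1 table of raw counts for each library, unnormalized, with summed exon lengths and a layout like that of featureCounts, per the file headers. Tools and build named in the submitters' processing notes, without roles, are Trimmomatic 0.36, STAR 2.5.2b, Subread 1.5.2, DESeq2 and GRCm39. Gene positions matched GENCODE M21 on GRCm38 for 91.4% of shared IDs and for all 10 genes described, so coordinates are read as GRCm38. Symbols were found for 48970 of 49315 IDs. Whether counting used strand is not stated.

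Genes were filtered with filterByExpr and scaled by TMM. Groups were compared by the quasi-likelihood test of edgeR 4.0.16 (R 4.3.3, robust, group alone), two-sided. P-values were adjusted by Benjamini-Hochberg over all 17185 genes, with a threshold of 0.05. SE is the log2 fold change over the square root of F, and 95% intervals use the degrees of freedom of the fit. TPM was computed from counts and the files' lengths. Alternatives were DESeq2 1.42.0, limma 3.58.1 (voom), other scalings, filters, covariates and left-out libraries. The scripts were tested on simulated counts. No 2 libraries were copies of each other (chi-square per degree of freedom of at least 5.84). An exact permutation test of 3 libraries against 3 cannot give a p under 0.1, and gave 0.1 for Fabp7.

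The members and gene lists were chosen with earlier results of these data known. Named genes were the 10 members, for each pathway list up to 4 genes past the threshold or, with none, the 2 with the highest mean TPM, and the 5 genes nearest to Fabp7 in profile (full symbol, mean of at least 1 CPM). 1 listed gene is not reported here. Any other was chosen after its values were seen.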

Additional observations from a re-analysis of the deposited data

How the results depend on the processing

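The number of genes called was 20 in the reported fit and moved widely: 696 in DESeq2, 1617 with no filter, 109 in limma-voom, 39 with the astrocyte marker covariate, 0 with the hippocampal marker covariate (1212 at an unadjusted p under 0.05, edgeR), 292 at a threshold of 0.1, and, chosen after seeing the data, 7 with sex as a covariate and 120 without shScr libraries 1 and 3, which leaves 1 shScr library assumed to vary like the others. With 1 library left out it ranged from 0 to 900. Of the 10 genes, 1 was called in DESeq2, 1 in limma-voom (109 of all 17185 genes) and 1 at a threshold of 0.1 (292 of 17185). With no filter 3 were called (Fabp7, Dbi and Acsl6), where 1617 of all 30935 genes were. With 1 library left out 0 to 2 were called, the 2 without shScr library 2, where 900 of all 17522 genes were. Of the pathway genes, 2 were called in DESeq2, 8 with no filter (against the same 1617 of 30935) and 0 to 1 with 1 library left out.

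Fabp7 also passed in limma-voom (-2.28, adjusted p = 0.0424), in DESeq2 (-2.30) and with no filter (-2.31), and ranged from -2.66 to -2.00 with 1 library left out. Whether the replicate numbers pair the libraries was not settled. Deviations of same-numbered libraries correlated at 0.081, 0.154 and 0.057. Not every library correlated best with its own number, as shFabp7 library 3 and shScr library 1 correlated at 0.099. The replicate block called 629 of all 17185 genes, 2 of the 10 (Fabp7 at -2.32 and Dbi at -0.36) and 2 pathway genes. With it the SE of Fabp7 was 0.14, against 0.35 in the reported fit.

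Signs turned for several values, most of them near 0. With 1 library left out, Fabp5 ranged from -0.057 to 0.087, Acsl1 from -0.022 to 0.077, Slc27a4 from -0.00044 to 0.086 and Eci2 from -0.017 to 0.12. Fabp5 was -0.018 in limma-voom and -0.0074 with sex as a covariate, where Eci2 was -0.00064. With the hippocampal marker covariate Acsl1 was -0.051, Acsl4 0.017 and Acot7 0.080, and without shScr libraries 1 and 3 Acsl1 was -0.089, Crabp2 0.11 (-0.57 with all 6 libraries), Got2 -0.00069 and Acot7 0.012. The cause was not tested for any of these. As shares of CPM without length, Fabp5 made up 49.0% of the FABP reads in shFabp7 and 44.3% in shScr, and Fabp3 47.2% in shFabp7 and 38.3% in shScr. Per kilobase of the longest protein-coding transcript, Fabp5 made up 44.6% in shFabp7 and 40.4% in shScr, and Fabp3 51.5% in shFabp7 and 41.9% in shScr. Counts of 41 to 93 Fabp7 reads limit the precision in shFabp7, and 3 libraries a group limit all intervals.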
